A study of Mus musculus with 13 samples.

Results

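Among the chromatin regions accessible in mouse microglia, 323 peaks had a lower level after a second injection of LPS than after a first, both in mice that kept their microglia and in mice whose microglia had been depleted and had returned. The assay, ATAC-seq, uses a transposase to insert sequencing adapters where chromatin is open, and a level is given as CPM, the count of a peak scaled to a common library total. For each group the mean CPM was taken as log2(mean CPM + 1), and a peak was included where the second LPS group lay at least 0.4 below the first LPS group on this scale in both arms, its mean count over the 13 libraries was 20 or more, and it was not on chromosome X or Y. The count minimum left 25307 autosomal peaks of 38620 in all, and the 323 peaks are 1.28% of them. The peaks were thus selected on the measured CPM of PL, LL, PBL and LBL, so the differences between first and second LPS are given below as descriptions, with no test. The count minimum used all 13 libraries, so a peak with low counts could also pass it through high counts at first LPS.

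The mice were male C57BL/6J. They received PBS or LPS (1 mg/kg, intraperitoneal) at 10 weeks of age, then from 1 week later BLZ945 (169 mg/kg per day for 5 days by gavage) or its vehicle, and 5 weeks after the first injection PBS or LPS again, with collection 3 hours later at 15 weeks. In the vehicle arm, PP mice had PBS at both times, PL mice PBS and then LPS, and LL mice LPS at both times. In the BLZ945 arm the same sequences are named PBP, PBL and LBL. PBL had 3 libraries and every other group 2, and each library pooled 40000 sorted cells from each of 2 mice. BLZ945 inhibits CSF1R, whose signal microglia need to survive. Cells that survived the drug and cells that refilled the brain afterwards cannot be told apart in the sorted population. In such pools, a peak that is open in fewer cells and a peak that is less open in every cell cannot be told apart either.

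LPS, a component of the outer membrane of Gram-negative bacteria, is sensed by Toll-like receptor 4, which acts through the adaptors MyD88 and TRIF to activate NF-kB, AP-1 and interferon regulatory factors. These factors open promoters and enhancers of cytokine, chemokine and feedback inhibitor genes within hours. Macrophages that have met LPS before often answer a later dose with lower expression of some of these genes, a state called endotoxin tolerance, while other genes respond as before or more strongly. Microglia can carry such a history for weeks.

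Library totals ran from 927893 to 2772621 counts in peaks, and the median raw count of the 323 peaks in a library ran from 15 to 62, so single values carry wide counting error. The PL pool 3_4 stood apart from the other libraries, with 53.2% of its counts in promoter peaks against 55.5% to 60.1% in the others. The labels name an Astrios sorter for PL and both resting groups and an XDP sorter for the remaining 3 groups. LL against PL thus also compares sorters, as do PBL and LBL against PBP and LL against PP. LBL and PBL shared a sorter, and so did PL and PP. LL and LBL were isolated on other days than PL and PBL, and the day and the LPS history cannot be told apart. The names of the PBL pools 3_4 and 4_5 both hold the animal number 4, and the labels do not say whether 1 mouse was in both. Promoter peaks were present at 7 of 8 microglia marker genes and at 0 of 8 neutrophil and 0 of 10 neuron markers, while 2 of 12 border macrophage and monocyte markers had one (13.41 to 30.76 CPM) and 3 of 9 endothelial and mural markers did (84.12 to 126.5 CPM). Summed over the microglia list, PP held 366.6 to 411.1 CPM, PBP 426 to 471.2, PL 279.9 to 296.6, PBL 274.3 to 294.6, LL 342.9 to 355.7 and LBL 337.7 to 391.9. The first LPS libraries were thus the lowest for these markers and the highest for the 323 peaks, and the part of this in the results was not tested. Astrocyte and oligodendrocyte lists had 2 of 8 each and the lymphocyte list 2 of 10. None of the 323 peaks lay within 50 kb of the start site of a gene in these marker lists.

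Promoter sequence was at hand in RefSeq (build GRCm38.p6) for 32 of the 323 peaks, as windows from 250 bases before to 50 after a start site that the peak covered by at least 150 bases. The NF-kB motif (its consensus of 3 G, a purine, any base, A or T, 2 pyrimidines and 2 C, on either strand) was found in 8 of these 32 windows (25%), beside 5.21% of all 7794 windows under autosomal peaks. The 250 bases before the start site are printed here for 4 genes of inflammatory signalling whose windows held the motif, and for Irf7, whose window did not, 5′ to 3′ on the strand of the gene with NF-kB matches in capitals. The stretches are chr5:90903649-90903898 (plus strand) for Cxcl2, chr3:83841609-83841858 (minus strand) for Tlr2, chr5:92348890-92349139 (minus strand) for Cxcl10, chr3:142496684-142496933 (plus strand) for Gbp5 and chr7:141266425-141266674 (minus strand) for Irf7.
Cxcl2: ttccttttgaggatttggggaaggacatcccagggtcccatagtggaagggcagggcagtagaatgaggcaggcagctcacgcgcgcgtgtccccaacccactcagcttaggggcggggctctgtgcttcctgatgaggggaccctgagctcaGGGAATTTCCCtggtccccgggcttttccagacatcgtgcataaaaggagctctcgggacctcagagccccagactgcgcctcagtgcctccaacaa
Tlr2: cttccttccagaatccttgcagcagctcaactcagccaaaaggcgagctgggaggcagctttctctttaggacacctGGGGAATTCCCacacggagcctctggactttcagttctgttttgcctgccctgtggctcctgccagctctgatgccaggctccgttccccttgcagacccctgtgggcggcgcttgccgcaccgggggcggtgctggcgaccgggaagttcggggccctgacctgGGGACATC
Cxcl10: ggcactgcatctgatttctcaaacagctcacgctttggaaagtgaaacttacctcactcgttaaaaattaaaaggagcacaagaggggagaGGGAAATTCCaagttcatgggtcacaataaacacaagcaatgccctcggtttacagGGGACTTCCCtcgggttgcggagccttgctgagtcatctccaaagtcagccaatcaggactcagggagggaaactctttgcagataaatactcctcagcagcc
Gbp5: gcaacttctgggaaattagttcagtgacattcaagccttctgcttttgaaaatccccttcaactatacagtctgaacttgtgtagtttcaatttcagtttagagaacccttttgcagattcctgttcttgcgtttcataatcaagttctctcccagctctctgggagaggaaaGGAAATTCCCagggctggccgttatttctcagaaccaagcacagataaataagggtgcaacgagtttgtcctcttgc
Irf7: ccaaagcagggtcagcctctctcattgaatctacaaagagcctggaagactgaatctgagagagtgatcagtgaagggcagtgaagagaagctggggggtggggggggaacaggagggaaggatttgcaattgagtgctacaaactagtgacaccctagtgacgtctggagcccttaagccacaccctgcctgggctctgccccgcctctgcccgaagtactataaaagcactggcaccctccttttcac
The capitals near the Cxcl2 start site are a pair of overlapping matches, the first starting 97 bases before it. In Cxcl10 there were 2 separate matches, and in Gbp5 1 that starts 77 bases before the start site. In Tlr2 an overlapping pair starts 173 bases before the start site, and the capitals at the end of the printed stretch belong to the third match, which runs past it. The Cxcl10 and Gbp5 windows each also held 1 interferon-stimulated response element. The other windows with the NF-kB motif, not printed, were those of the peaks near Mt2, Il12rb2 and Zfp429 and of a Maff peak. The window under the Mt2 peak belongs to the start site of Gm39227 on the minus strand, not to that of Mt2. The window of the Birc3 peak did not hold the motif. Among the peaks with the motif that were followed under 12 alternative settings, Mt2 met the rule under 12 and Cxcl10 under 11. Cxcl2, the Tlr2 start site and the Maff peak met it under 10 and Gbp5 under 7. The membership of most of these peaks thus rests in part on single libraries.

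TGANTCA, the site of AP-1, was in 4 of 32 windows (12.5%, all windows 4.35%), and the composite site of PU.1 and IRF factors in 3 (9.38%, all 2.44%). GGGCGG, bound by SP and KLF factors, was in 18 (56.2%, all 69.4%), and the E-box CACGTG in 2 (6.25%, all 11.4%). TTGCNNAA, bound by C/EBP factors, was in 3 (9.38%, all 7.84%), and the cyclic AMP response element TGACGTCA in 2 (6.25%, all 3.91%). The glucocorticoid response element was in 0 of 32 windows and in 0.0128% of all. Member windows had a median GC content of 56.2% and a median of 12 CpG dinucleotides, against 62% and 22 over all windows. The 8 windows with the NF-kB motif had a median PL minus PP difference of 0.742 and PBL minus PBP of 0.695 (log2), and the 24 without it 0.0775 and 0.413. These groups also enter the rule, and the windows cover 29 of the 81 promoter peaks in the set.

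The set was small beside the lists from either arm alone. LL lay 0.4 or more below PL at 1206 peaks (4.77%), of which the 323 are 26.8%, and LBL lay that far below PBL at 1578 (6.24%), of which they are 20.5%. Of the 1206, 821 also had LBL below PBL by any amount and 70 had LBL above PBL by 0.4 or more. Of the 1578, 1091 had LL below PL and 29 had LL above PL by 0.4 or more. Over all autosomal peaks, LBL lay below PBL by any amount at 50% and LL below PL at 48.6%. Over the 323 peaks the median difference was -0.562 for LL minus PL and -0.655 for LBL minus PBL.

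**Figure D1:**
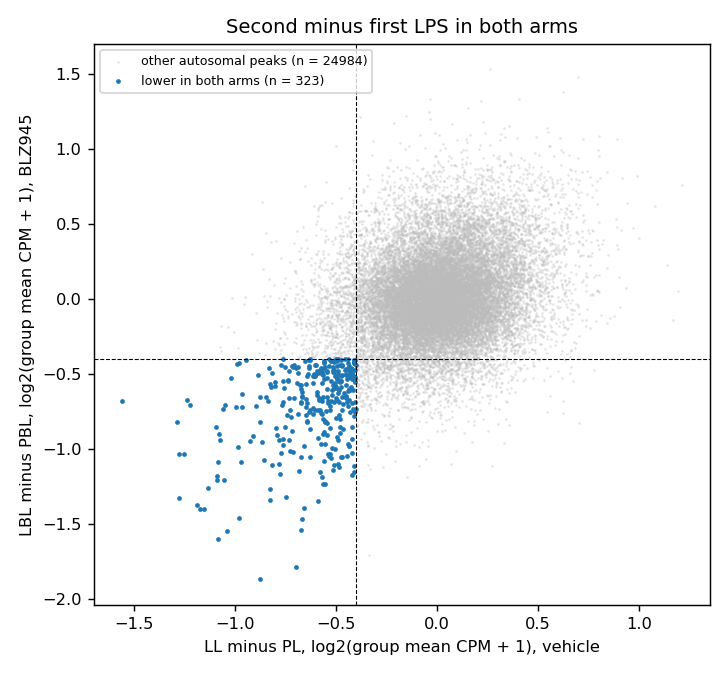
Difference between second and first LPS in log2(group mean CPM + 1) for each autosomal peak with a mean count of 20 or more, vehicle arm (LL minus PL) on the horizontal axis and BLZ945 arm (LBL minus PBL) on the vertical axis. Blue points are the 323 peaks at or below -0.4 on both axes (dashed lines), and gray points are the other 24984.

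Every PL library lay above every LL library at 285 of the 323 peaks (88.2%; 15.5% of all autosomal peaks), and every PBL library above every LBL library at 291 (90.1%; 15.4% of all). Both held at 256 peaks (3.65% of all). These shares follow from choosing peaks by the means of the same libraries and support nothing further. The edge of the rule ran through near-equal values. Just inside were peaks near Mbnl2, chr8:108848522 and Card19, whose smaller difference was -0.402, -0.401 and -0.401. Just outside were peaks near Cdk6, Tmem243 and Dot1l, the last at -0.399. The inside values fall short of the rule without PL 3_4 at Card19 (-0.198) and chr8:108848522 (-0.179), where it was -0.0853 without LL 1_2, and without LBL 3_4 at Mbnl2 (-0.216). Choosing again with each of the 9 LPS libraries left out in turn kept 70 of the 323 peaks (21.7%) throughout. Without PL 3_4 the rule gave 295 peaks, of which 178 were among the 323 (55.1%).

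At rest, the level of the peaks was closer to that after the second LPS than to that after the first. The median over the peaks was 16.2 and 15.7 CPM in the PP libraries and 13.3 and 14 in PBP. It was 19.8 and 23.4 CPM in PL and 20.8, 23 and 22.4 in PBL, and 13.4 and 14.2 in LL and 12.6 and 13.3 in LBL. All 5 libraries of first LPS thus lay above the 4 resting and the 4 second LPS libraries, and the resting PBP and second LPS libraries lay in the same range. The median over all 25307 peaks stayed between 26 and 27.3 CPM in all 13 libraries.

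**Figure D2:**
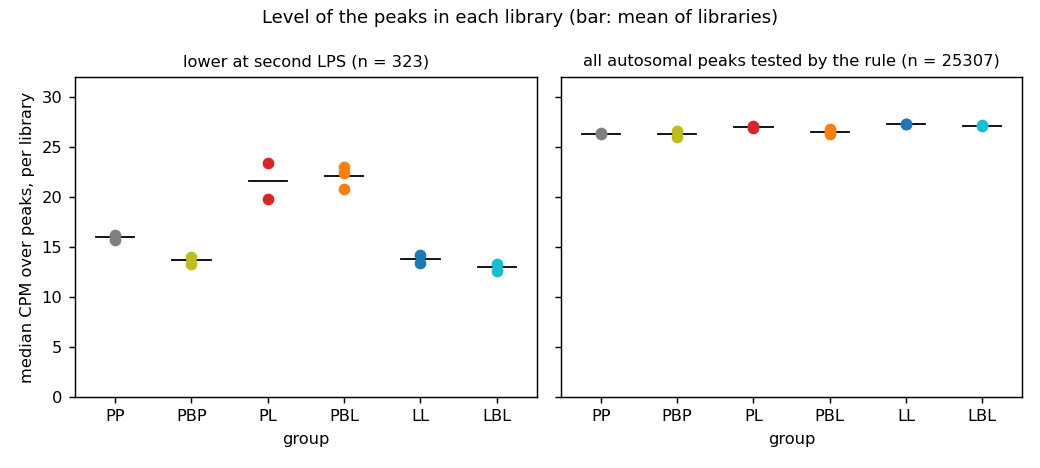
Median CPM over peaks in each library, by group, for the 323 peaks (left) and all 25307 autosomal peaks (right). Points are libraries and bars the mean of the libraries of a group. The first LPS libraries lie at 19.8 to 23.4 CPM on the left, and the right panel lies between 26 and 27.3 CPM.

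Set against rest, first LPS was higher by a median of 0.457 in the vehicle arm (PL minus PP, log2) and 0.696 in the BLZ945 arm (PBL minus PBP), where the median of all autosomal peaks was 0.000916 and -0.0173. Second LPS was close to rest, with a median of -0.185 for LL minus PP and -0.0568 for LBL minus PBP (all peaks 0.00726 and -0.013). These medians share libraries with the rule, which sets PL and PBL high and LL and LBL low. The PL minus PP median was 0.324 without PL 3_4, and LBL minus PBP ran from -0.133 without LBL 3_4 to -0.022 without LBL 1_2.

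The single peaks fell into several patterns. First LPS was 0.4 or more above rest at 173 peaks in the vehicle arm (53.6%; 18.9% of all peaks) and at 220 in the BLZ945 arm (68.1%; 14%), and at 156 in both (48.3%; 8.58%). At 72 peaks the first LPS group lay within 0.4 of rest in both arms (22.3%; 53.4% of all peaks). Second LPS was 0.4 or more below rest at 106 peaks in the vehicle arm (32.8%; 14% of all) and 78 in the BLZ945 arm (24.1%; 8.77%). It was 0.4 or more above rest at 56 (17.3%; 18.1%) and 70 (21.7%; 14.8%). Without PL 3_4, chosen again, 79 of 295 peaks (26.8%) were 0.4 or more above rest at first LPS in both arms, so the share of opened peaks rests in part on that library. Among the 70 peaks kept throughout the share was 39 of 70 (55.7%).

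**Figure D3:**
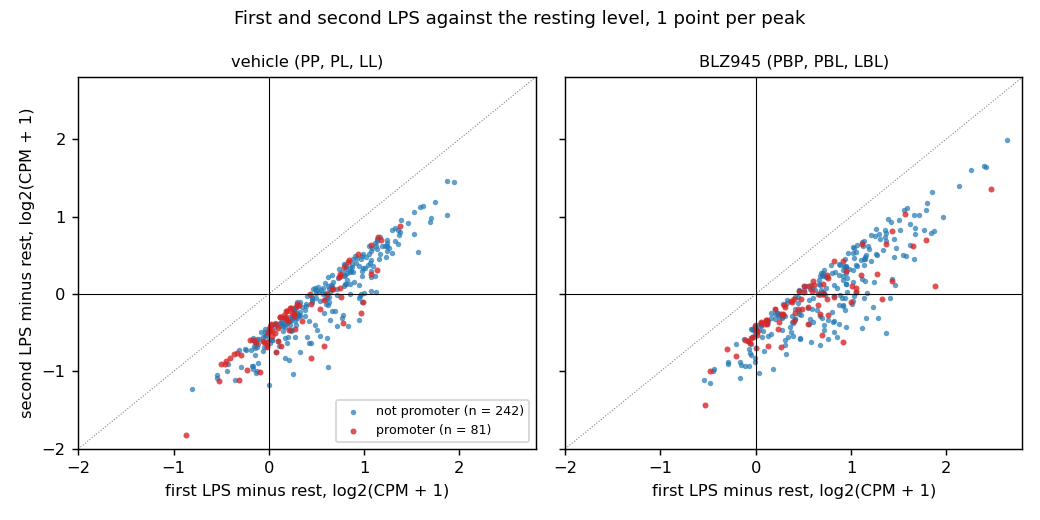
First LPS minus rest (horizontal) against second LPS minus rest (vertical) in log2(CPM + 1) for the 323 peaks, vehicle arm on the left and BLZ945 arm on the right, with 81 promoter peaks in red and 242 others in blue. All points lie under the dotted line of equal values because of the rule. Points right of the vertical line were higher at first LPS than at rest, and points under the horizontal line were lower at second LPS than at rest.

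Most of the peaks lay outside promoters. The deposited annotation placed 81 of 323 (25.1%, 95% exact binomial interval 20.4% to 30.2%) at promoters, within 1 kb of a start site, beside 46.6% of all autosomal peaks. Another 106 lay in introns (32.8%; all 26.1%), 108 in distal intergenic sequence (33.4%; all 20.3%), 18 in exons, 9 in 3′ UTRs and 1 in a 5′ UTR. Without PL 3_4, chosen again, the promoter share was 38.3%, and among the 70 peaks kept throughout it was 18.6%. The median width was 518 bp (all 563 bp), and the median distance to a start site 7952 bp (all 1771 bp). The 323 peaks also had lower counts, with a median mean count of 30.2 against 47.2 over all autosomal peaks. Over all autosomal peaks it was 69.3 at promoters and 35.9 elsewhere. The part of the count level in the promoter share, width and distance was not tested. Opening in both arms was found at 132 of the 242 other peaks (54.5%) and at 24 of the 81 promoter peaks (29.6%). The median of LL minus PP was -0.344 at promoter peaks and -0.071 at the others. Over all autosomal peaks it was likewise lower at promoters, at -0.107 against 0.145 elsewhere. PL minus PP over all autosomal peaks was -0.116 at promoters and 0.142 elsewhere. The contrast between promoters and other peaks is thus not particular to the 323. Another member lay within 50 kb of 29 peaks (8.98%), beside 4.62% of the other autosomal peaks.

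Receptor and signalling genes come first. Tlr2, a receptor for bacterial lipoproteins, had 2 of its 4 autosomal peaks in the set. At the distal one (chr3:83845188-83845550, 3421 bp upstream) the PL libraries held 14.8 and 26.1 CPM, PBL 23.9, 28.9 and 29.6, LL 10.9 and 12, and LBL 14.5 and 13.1. Rest was 11.3 and 7.07 CPM in PP and 7.86 and 6.83 in PBP. Every first LPS library was above every second LPS and resting library, and first LPS was 2.22-fold (vehicle) and 3.73-fold (BLZ945) above rest. At the Tlr2 start site (chr3:83841365-83841904), whose sequence is printed above, PL held 27.2 and 42.2 CPM and LL 21.6 and 26.7, and PBL held 46, 41.8 and 41.8 and LBL 26.5 and 30.7. Rest there was 19.9 and 20.7 CPM in PP and 28.1 and 23.9 in PBP, so LBL overlapped with rest. Both rest on the PL pool 3_4: without it the smaller difference was -0.338 at the distal peak and -0.165 at the start site, short of the rule.

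Traf3, an adaptor that links receptors to the interferon branch, had a peak in intron 2 of 3 (chr12:111164548-111164804) with a different pattern. PP held 24.8 and 24.7 CPM, PL 22.2 and 33.6 and LL 15.9 and 20.4, so second LPS was under rest while the PL pools lay on either side of it. In the BLZ945 arm PBP held 22.4 and 21.3 CPM, PBL 22.8, 25 and 25.8, and LBL 19.1 and 15.6. Without PL 3_4 its smaller difference was -0.273. Irak2, a kinase of the MyD88 complex whose peak was named after its values were seen, had a promoter peak (chr6:113668677-113669136) near the edge of the rule at -0.41 in both arms, and it met the rule in 4 of the 9 choices with a library left out. Ikbke, the kinase IKK-epsilon, had a promoter peak (chr1:131276691-131277193) with 13.6 and 15.3 CPM in PL against 8.44 and 6.01 in LL, and 15.2, 15.7 and 15.3 in PBL against 6.14 and 9.32 in LBL. Its resting level was 11.9 and 19.2 CPM in PP, spanning the PL values, and 6.65 and 7.59 in PBP, in the range of LBL. The Ikbke peak passed the count minimum only through its first LPS libraries. Without any single PL or PBL library it missed that minimum, while its smaller difference stayed at -0.826 or lower.

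Of the secreted inflammatory proteins, Cxcl2, a chemokine for neutrophils, had 1 autosomal peak above the count minimum, at its start site (chr5:90903441-90903986), and it was in the set. PL held 13.6 and 13.7 CPM and LL 9.19 and 5.61, and PBL held 12.5, 13.2 and 19.5 and LBL 12.6 and 7.3. PP was highest in its arm at 17.2 and 17.2 CPM, so first LPS was not above rest there, while PBP was at 7.86 and 11.4. LBL and PBL overlapped by 1 library, and the smaller difference of -0.551 was -0.336 without PBL 4_5 and -0.238 without LBL 3_4. Il12b, which encodes the p40 subunit of IL-12 and IL-23, had a peak 9470 bp from its start site (chr11:44389939-44390593) at 18 and 22 CPM in PL and 20.1, 33.9 and 31.2 in PBL. There LL held 8.94 and 17.6 CPM and LBL 10.7 and 15.1, beside 10.2 and 12.1 in PP and 12.4 and 5.32 in PBP. First LPS was above every other library at this peak, whose smaller difference was -0.174 without LL 1_2 and -1.08 without LL 3_4.

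Of the 5 members with the highest mean CPM, 2 were promoters of NF-kB target genes. Birc3, an inhibitor of apoptosis that acts in TNF receptor signalling, had a promoter peak (chr9:7872607-7873336) with 79.2 and 111 CPM in PL, 71 and 65.3 in LL and 35 and 48 at rest in PP. With BLZ945 it held 65.8, 96.1 and 104 CPM in PBL, 57.8 and 54.4 in LBL and 52.6 and 38.4 in PBP. Second LPS thus lay between rest and first LPS in every library of both arms. Nfkbiz, a nuclear co-regulator of NF-kB targets such as Il6, had a promoter peak (chr16:55838524-55839506) at 73 and 100 CPM in PL, 65.8 and 61.7 in LL and 49 and 50.5 in PP. Its BLZ945 libraries held 74.8, 85.5 and 80.2 CPM in PBL, 54.3 and 61.7 in LBL and 60.8 and 47.5 in PBP, and here LBL and rest overlapped. Without PL 3_4 the smaller difference was -0.213 at Birc3 and -0.192 at Nfkbiz, short of the rule at both.

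Feedback inhibitors of LPS signalling were also among the peaks. Tnfaip3 encodes A20, which removes ubiquitin chains in NF-kB signalling, and its promoter peak (chr10:19009170-19009739) held 24.5 and 45.4 CPM in PL, 19.4 and 19.2 in LL and 16.7 and 14.1 in PP. In the BLZ945 arm it held 31.8, 47.3 and 50.7 CPM in PBL, 13.9 and 20.9 in LBL and 14.5 and 16.3 in PBP. First LPS was 2.27-fold above rest in the vehicle arm and 2.81-fold in the BLZ945 arm, and 1.81-fold and 2.49-fold above second LPS. The groups of first and second LPS did not overlap. The vehicle folds rest in part on 1 pool, since the smaller difference of -0.825 was -0.33 without PL 3_4. Of the 6 autosomal peaks of Tnfaip3, 1 was in the set, and 3 had both differences below 0.

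Dusp2, a phosphatase of MAP kinases, had a peak 12792 bp upstream (chr2:127322612-127323367) with one of the largest differences. PL held 15.4 and 19.3 CPM, LL 8.94 and 6.41, PBL 14.2, 24.5 and 25.2, and LBL 4.2 and 8.56, while PP held 9.16 and 14.1 and PBP 7.26 and 9.11. LL minus PL was -1.08 and LBL minus PBL -1.60 (log2), and 2 of the 4 second LPS libraries lay under every resting library. Its promoter peak (chr2:127335059-127335685), named after its values were seen, held 33.9 and 30.8 CPM in PP but 16.9 and 17.1 in PBP. PL was at 26.9 and 35.5 CPM and LL at 23.6 and 17.6, and PBL at 33.2, 37 and 38.4 and LBL at 17.1 and 18.9. First LPS at the promoter was thus above rest in the BLZ945 arm and level with it in the vehicle arm.

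Zc3h12a encodes Regnase-1, a nuclease that degrades cytokine mRNAs, and had neighbouring peaks in intron 2 of 5. At chr4:125124818-125125185, PP held 27.5 and 26.3 CPM, PBP 27.8 and 26.6 and PL 19.8 and 29.8, while PBL held 30.1, 35.9 and 36.8. LL was at 13.2 and 14.8 CPM and LBL at 18.1 and 12.8, under every resting and first LPS library, and without PL 3_4 the smaller difference was -0.472 in place of -0.783. The neighbouring peak at chr4:125124438-125124759, named after its values were seen, held 26.6 and 26.3 CPM in PL against 12.9 and 13.2 in LL, and 26.3, 25.7 and 25.1 in PBL against 15.5 and 14.9 in LBL. Tgfb1, which encodes the cytokine TGF-beta that maintains microglial identity, had a strong promoter peak (chr7:25688826-25689597) at 71.7 and 62.6 CPM in PP, 63.2 and 53.7 in PL and 45.7 and 42.3 in LL. PBP held 68.4 and 60.8 CPM, PBL 72.4, 52 and 62.8, and LBL 37.2 and 48.9. At Tgfb1 the second LPS libraries were the lowest of their arm, and first LPS and rest overlapped. Its LL minus PL difference of -0.403 was at the edge of the rule, which it met under 7 of 12 alternative settings. The other of the 2 autosomal peaks of Tgfb1 had an LL minus PL of 0.164.

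A peak upstream of Mir146, the gene of the inhibitory microRNA miR-146a, also had its lowest levels after the second LPS. This peak (chr11:43385022-43385664, annotated as exon 1 of 2 of a transcript, 10561 bp from the start site) was named after its values were seen. PP held 56.6 and 66.7 CPM, PL 49.3 and 59.9 and LL 29.5 and 32.3, while PBP held 87.4 and 88.1, PBL 53.3, 59.1 and 68, and LBL 35.2 and 44.6. Resting PBP was the highest group and the second LPS groups the lowest. A peak 81444 bp from Mir155hg, the host gene of miR-155, lay beyond the 50 kb within which peaks were given to a gene. This peak (chr16:84621258-84621723, also named after its values were seen) was higher at first LPS than at rest, with 25.1 and 42.4 CPM in PL and 22.5, 35.5 and 24.3 in PBL. It held 11.3 and 18.7 CPM in PP, 14.4 and 16.2 in LL, 15.7 and 14.4 in PBP and 13.6 and 15.9 in LBL, so second LPS and rest overlapped.

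Interferon-stimulated genes gave 3 peaks, each at a promoter. Cxcl10, a chemokine for T cells (chr5:92348775-92349169), held 24.2 and 25.3 CPM in PL, 15.6 and 19 in LL and 16.2 and 12.6 in PP, and 20.1, 25 and 24.5 in PBL, 17.1 and 15.1 in LBL and 8.77 and 14.8 in PBP. Gbp5, a guanylate-binding protein of inflammasome activation (chr3:142496625-142497039), held 11.8 and 18.3 CPM in PL and 13.2, 20.5 and 16.4 in PBL. LL held 11.9 and 8.82 CPM and LBL 11.6 and 13.1, above rest in each arm (PP 4.31 and 6.06, PBP 6.96 and 11). Irf7, a transcription factor of the interferon response (chr7:141266263-141266623), held 19.5 and 9.94 CPM in PL, 8.69 and 11.8 in LL and 15.1 and 14.1 in PP. It held 22.5, 18.6 and 13.5 CPM in PBL, 9.05 and 11.1 in LBL and 10.3 and 12.2 in PBP. The PL pools differed by so much at Irf7 that without PL 1_2 its smaller difference was 0.0411, above 0, and without LL 1_2 it was -0.294. At Gbp5 it was -0.173 without PL 3_4 and -0.24 without PBL 3_4.

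**Figure D4:**
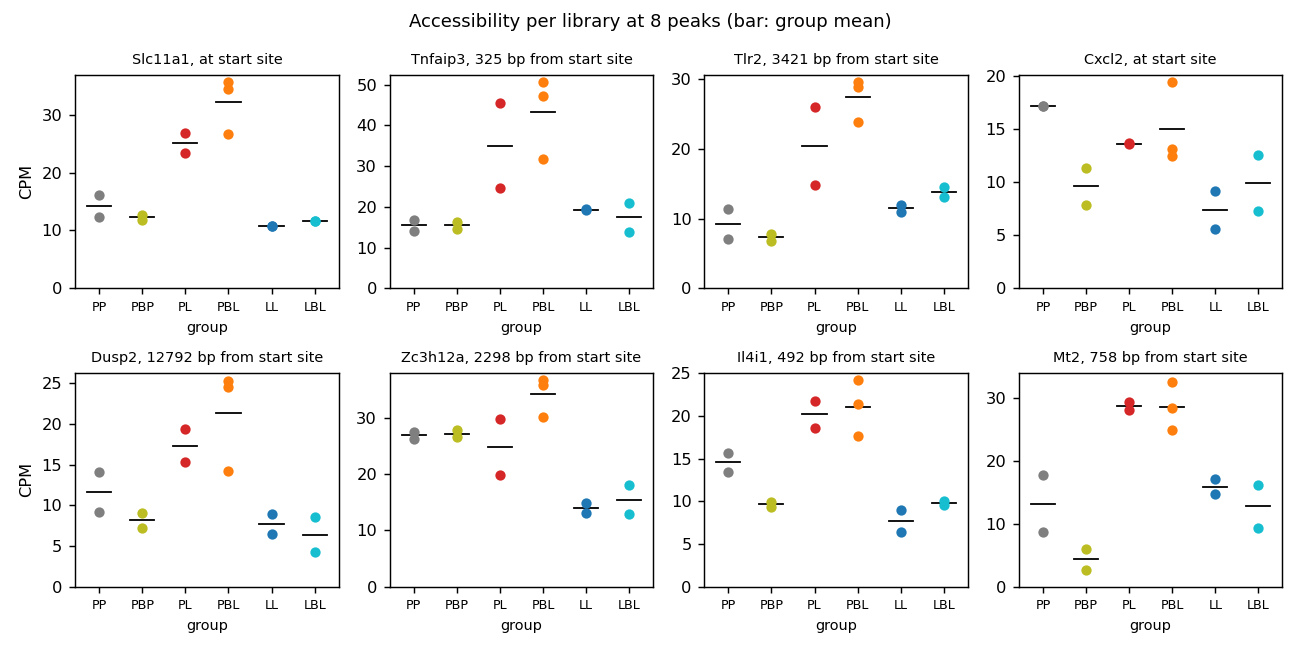
CPM in each library by group at 8 peaks, with points for libraries and bars for group means, and the distance to the start site above each panel. First LPS (PL and PBL) is the highest pair of groups at Slc11a1, Tnfaip3, Tlr2 and Mt2. At Cxcl2 the PP libraries, at 17.2 CPM, are above PL, and at Zc3h12a second LPS lies under rest.

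The 12 strongest differences included 3 promoter peaks, at Slc11a1, Tmbim1 and Gm5475. Slc11a1 encodes a metal transporter of the phagosome membrane that restricts intracellular bacteria, and its promoter peak (chr1:74381455-74382023) held 23.3 and 26.9 CPM in PL, 10.7 and 10.8 in LL and 12.4 and 16.2 in PP. It held 26.7, 35.7 and 34.4 CPM in PBL, 11.6 and 11.6 in LBL and 12.7 and 11.8 in PBP. First LPS was 2.34-fold and 2.78-fold above second LPS. LL lay under PP, while LBL at 11.6 and 11.6 CPM was nearly level with PBP, whose lower library was at 11.8. Of the 4 autosomal peaks of Slc11a1, only this 1 had both differences below 0, and LL minus PL was up to 0.568 at the others. Tmbim1, of the transmembrane BAX inhibitor motif family, had a promoter peak (chr1:74295160-74296099) with 39.6 and 45.7 CPM in PL against 17.6 and 17 in LL. With BLZ945 it held 49.2, 48.2 and 59.7 CPM in PBL and 23.6 and 26.4 in LBL. Resting levels there were 32.9 and 23.7 CPM in PP and 17.8 and 14.1 in PBP, so LL lay under rest and LBL above it.

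By the smaller of their differences, the 12 strongest peaks also included those near Tmsb10 (-1.28 in the vehicle arm and -1.33 in the BLZ945 arm), Ezr (-1.19 and -1.37), Ubtd2 (-1.17 and -1.40), Zfp664 (-1.09 and -1.18), 3425401B19Rik (-1.09 and -1.20), Gm5475 (-1.08 and -1.09) and Gm5069 (-1.05 and -1.21). Peaks at chr8:9008081 (-1.13 and -1.26) and chr12:86819090 (-1.04 and -1.55) lay beyond 50 kb of any start site. Tmsb10 encodes an actin-binding thymosin, and Ezr a linker of actin to the membrane. At the Tmsb10 peak (chr6:72937914-72938237, 20065 bp away) PL held 18.9 and 23.9 CPM and LL 6.46 and 10, and PBL held 12.1, 23.9 and 24 and LBL 6.14 and 8.56. Rest was 9.16 and 12.1 CPM in PP and 10.3 and 14.1 in PBP. Of the PBL pools there, 1_2 lay within the resting range and the other 2 above it. Without PL 3_4 the smaller difference was -0.45 at Gm5069, -0.56 at chr12:86819090 and -0.751 at chr8:9008081. Without PBL 4_5 the peaks at Ezr, Ubtd2, Zfp664 and Gm5069 fell under the count minimum, with their smaller differences unchanged. Ezr and Ubtd2 also missed it without PBL 3_4. Without PL 3_4 it was missed at Ubtd2 and Zfp664, whose smaller differences were then -0.991 and -0.823.

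Among the 8 strongest promoter peaks was Il4i1, an amino acid oxidase secreted by activated myeloid cells (chr7:44835343-44835795). It held 18.6 and 21.8 CPM in PL, 6.46 and 9.02 in LL and 13.5 and 15.7 in PP, and 17.7, 21.4 and 24.2 in PBL, 10 and 9.57 in LBL and 9.38 and 9.87 in PBP. Second LPS was under rest in the vehicle arm and level with it in the BLZ945 arm. Mt2, a metallothionein that binds zinc and is induced by glucocorticoids (chr8:94171374-94171906), held 28.1 and 29.3 CPM in PL, 14.6 and 17 in LL and 8.62 and 17.7 in PP. In the BLZ945 arm it held 24.9, 28.4 and 32.5 CPM in PBL, 16.2 and 9.32 in LBL and 6.05 and 2.66 in PBP, so first LPS was 6.57-fold above rest. The size of this fold is uncertain, since the PBP level stands on few counts and PBL and PBP also differ in sorter. Gem, a small GTP-binding protein (chr4:11704233-11704923), held 35.1 and 45.7 CPM in PL and 34.6, 35.9 and 29.4 in PBL, against 22.8 and 22.8 in LL and 18.4 and 17.4 in LBL, and its second LPS and resting groups overlapped.

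Pde4b, a phosphodiesterase that breaks down cyclic AMP and sustains LPS-induced cytokine production in macrophages, was the gene with the most members, 4 of its 9 autosomal peaks. The most accessible of them (chr4:102623790-102624740, 33947 bp away) held 33.7 and 57.5 CPM in PL, 31.8 and 30.9 in LL and 18.3 and 24.7 in PP, and 39.8, 51.4 and 45.8 in PBL, 27.8 and 27.2 in LBL and 26.6 and 28.1 in PBP. The next (chr4:102624930-102625441) held 31.9 and 50.8 CPM in PL, 24.1 and 27.3 in LL, 36.4, 46.4 and 48.5 in PBL and 24.9 and 30 in LBL. Without PL 3_4 their smaller differences were -0.101 and -0.303. The third lay 18050 bp away (chr4:102607893-102608484) and had differences of -0.86 and -0.96, the smaller being -0.549 without PL 3_4. The PL pools differed widely at the fourth, in intron 8 of 16 (chr4:102572104-102572439), with 20.1 CPM in 1_2 and 44.1 in 3_4, and without PL 3_4 its smaller difference was 0.124, above 0.

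The other most accessible members lay away from promoters. The highest (chr4:119966113-119967390, intronic, beyond 50 kb of a start site) held 110 and 141 CPM in PL, 90.1 and 92.6 in LL and 50.1 and 64.6 in PP. With BLZ945 it held 117, 135 and 130 CPM in PBL, 89.2 and 89.7 in LBL and 58.4 and 57.3 in PBP. Second LPS lay between rest and first LPS there in all libraries. A peak in intron 2 of 7 of Etv6, a repressor of the ETS family (chr6:134220151-134220957), held 71.8 and 90.3 CPM in PL and 49.2 and 68.9 in LL, with PBL at 68.5, 73.2 and 74.7 and LBL at 46.5 and 54.6. It was the only member among the 13 autosomal peaks of Etv6. At chr12:25213693 the values were 81.8 and 108 CPM in PL, 58.1 and 60.1 in LL, 73.7, 90.2 and 88.2 in PBL, and 41.4 and 38.5 in LBL. Without PL 3_4 the smaller difference was -0.26 at chr4:119966113 and -0.277 at Etv6, where it was -0.23 without LL 1_2.

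Members near gene lists were few. Of the 79 autosomal peaks within 50 kb of inflammatory cytokine and NF-kB target genes, 6 were in the set (7.59%, beside 1.28% of all peaks), at Birc3, Cxcl2, Il12b, Nfkbiz and Tlr2. Negative regulators of LPS signalling gave 6 of 84 (7.14%), at Dusp2, Tgfb1, Tnfaip3 and Zc3h12a, and interferon-stimulated genes 3 of 42 (7.14%). Antigen presentation genes gave 2 of 31 (6.45%), at Cd74 and H2-Aa, and Toll-like receptor signalling components 4 of 81 (4.94%), at Irak2, Tlr2 and Traf3. These counts rest on few peaks, Tlr2 and Tgfb1 each stand in more than one list, and of the 70 peaks kept throughout 0 were near the inflammatory list and 3 near negative regulators (4.29%).

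Homeostatic microglia genes gave 0 of 144 peaks, chromatin modifier genes 0 of 57 and cell cycle genes 0 of 41. With a share of 1.28% over all peaks, few members are to be met in lists of this size, and nothing is read from these counts. The median over the homeostatic peaks was 0.0972 for LL minus PL and 0.137 for LBL minus PBL. Over all autosomal peaks it was 0.00753 and -0.000425, and the 323 lie below 0 in both because of the rule. Immediate early and AP-1 genes gave 2 of 88 (2.27%), both at Maff, a small Maf transcription factor, and glucocorticoid receptor targets 1 of 64 (1.56%), Mt2. Glycolysis and other genes of trained immunity metabolism gave 2 of 62 (3.23%), intronic peaks of Hk2 and Pfkfb3. These were 1 of 11 autosomal peaks of Hk2 and 1 of 12 of Pfkfb3. TGF-beta pathway genes gave 1 of 76 (1.32%), and disease-associated or primed microglia genes 2 of 64 (3.12%), at Lgals3 and Lpl. At Hk2, the hexokinase that starts glycolysis (chr6:82753014-82753488), PL held 17.4 and 27.7 CPM, PBL 28.7, 24.5 and 25.4, LL 12.4 and 19.6 and LBL 17.4 and 13.1, all above rest in PP (9.16 and 8.08) and PBP (8.47 and 9.49). Without PL 3_4 the smaller difference was -0.114 at Hk2, -0.0501 at Pfkfb3 and -0.148 at Lpl, and at Hk2 it was -0.19 without LL 1_2.

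**Figure D5:**
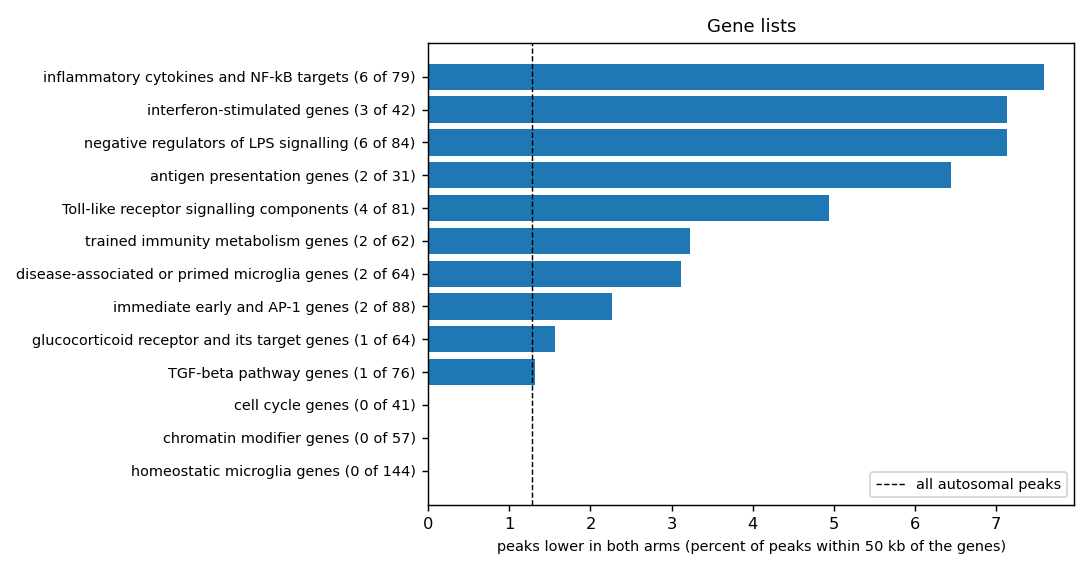
Share of the autosomal peaks within 50 kb of each list's genes that belong to the 323, in percent, with the counts beside each name. The dashed line is the share over all autosomal peaks, 1.28%. The bars rest on 0 to 6 peaks each.

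Antigen presentation members were the promoter of Cd74, the invariant chain of MHC class II, and an intronic peak 8169 bp from H2-Aa, a class II alpha chain. At Cd74 (chr18:60803580-60803874) PL held 18.6 and 23.6 CPM, LL 13.2 and 14.6, PBL 19.7, 18 and 24.2, and LBL 11.6 and 13.3, with rest spread from 8.58 to 22.1 CPM in PP. At H2-Aa (chr17:34295992-34296500) PL held 24.8 and 25.8 CPM, LL 17.6 and 12.2, PBL 26.7, 21.8 and 25.8, and LBL 11 and 16.9. At the Lgals3 promoter (chr14:47374339-47374775), which belongs to galectin-3 of phagocytic microglia, PL held 13.9 and 19.1 CPM, LL 10.4 and 10.4, PBL 20.4, 20.7 and 13.5, and LBL 10.3 and 10.8. The first and second LPS groups did not overlap at these 3 peaks, and at Lgals3 the smaller difference was -0.382 without PL 3_4. At Maff (chr15:79347113-79347729) PP held 30.7 and 47.5 CPM, as high as PL at 45.2 and 29.8, and LL held 22.8 and 27.7, while PBL held 44.7, 43.9 and 39.9 and LBL 18.4 and 16.9. Its smaller difference was -0.232 without PL 1_2, and that of the other Maff peak was -0.119 without PL 1_2 and -0.123 without LL 1_2.

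The resting groups did not enter the differences of the rule, so PBP against PP could be tested. The 323 peaks were lower in PBP by a median of -0.193 (log2; all autosomal peaks -0.000945), and 218 of them (67.5%) lay below 0 against 50.1% of all. PBP was 0.4 or more below PP at 102 peaks (31.6%; 11.3% of all) and 0.4 or more above at 19 (5.88%; 9.51%). Every PP library lay above every PBP library at 125 peaks (38.7%; 21.2% of all), and the reverse held at 33 (10.2%; 21.1%). The median was -0.231 at promoter peaks and -0.187 at the others, where all promoter peaks had -0.0282. Summed marker peaks also differed between these groups, with 366.6 to 411.1 CPM in PP and 426 to 471.2 in PBP for the microglia list, and 57.66 to 60.59 in PP and 33.04 to 36.9 in PBP for the lymphocyte list, where 2 of 10 genes had a promoter peak. Their part in the result was not tested.

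No single peak passed the test. In edgeR's quasi-likelihood test over 37516 peaks, 0 of the 323 were called in PBP against PP in either direction, beside 0.096% of all tested peaks called lower and 0.064% called higher. An unadjusted p under 0.05 was found at 32 of the 323, of which 28 were lower in PBP, and at 9.73% of all tested peaks. DESeq2 also called 0. The lowest p belonged to a promoter peak of Dux, a transcription factor gene of the early embryo that lies in a repeat array (chr10:58231721-58232866). It held 42.6 and 38.4 CPM in PP and 24.5 and 14.8 in PBP, a log2 fold change of -0.98 ± 0.26 (SE; edgeR adjusted p = 0.0867), and reads from its copies cannot be assigned with certainty. The Dusp2 promoter had -0.91 ± 0.29 (edgeR adjusted p = 0.194) and Mt2 -1.48 ± 0.47 (edgeR adjusted p = 0.207). Dux and the Dusp2 promoter were named after their values were seen.

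PP was isolated on the same day as the PL pool 3_4, and PBP on the same day as PL 1_2. Chosen again without PL 3_4, the peaks had a PBP minus PP median of -0.294, and chosen again without PL 1_2 of -0.111. The direction was the same in both, the size moved with the PL pool used by the rule, and the day and BLZ945 cannot be told apart in PBP against PP. First LPS against rest, which shares libraries with the rule, was called higher by edgeR at 84 of the 323 in the vehicle arm (PL against PP, 4.77% of all tested) and at 172 in the BLZ945 arm (PBL against PBP, 6.74%). The first LPS effect differed between the arms at 0 of the 323 (28 of all 37516, 0.0746%), with an unadjusted p under 0.05 at 36 (11.1%), the same share as over all tested peaks (4158, 11.1%). Of the 36, 32 had the higher value in the BLZ945 arm, as had 2168 of the 4158. PBL and PBP differ in sorter and PL and PP do not, and PL and PBL enter the rule. Arm, sorter, day and selection cannot be told apart in these counts.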

How the data were processed

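For 13 ATAC-seq libraries the authors deposited estimated counts over a common set of peaks, unscaled and in steps of 0.5, per the file headers and values. Bowtie2 2.2.6, MACS2 2.1.1, ChIPseeker 1.38 and HOMER 4.9.1 are among the tools in the submitters' processing notes, beside the builds GRCm38 and mm10, with no order or settings. Filters and any shift of read ends are not given in the sources used here. Other deposited columns give the width of each peak, its annotation and its distance to the nearest start site in bp, per the file headers.

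Here, CPM is a count divided by the column total, and folds are ratios of group mean CPM. Levels on the log2(mean CPM + 1) scale understate changes of low peaks. For tests, counts were rounded to whole numbers and fitted in edgeR 4.0.16 (R 4.3.3) with 6 group means over all libraries, filterByExpr at a minimum count of 10, TMM factors and the quasi-likelihood F test, two-sided, with Benjamini-Hochberg adjustment over 37516 peaks. DESeq2 1.42.0 was an alternative, and the fit was tested on simulated data. Nothing in the labels says that pools come from separate cages or litters, and p-values measure the spread between pools.

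The 323 peaks, the gene lists and the tests were chosen with earlier results of these data known. Named peaks are the 12 with the strongest weaker-arm difference, the 8 strongest promoter peaks, the strongest members of each list, the peaks at the edge of the rule, the 5 with the highest mean CPM and those of the gene with most members, with exceptions stated where named. A peak was given to a gene when its nearest start site was within 50 kb. Motifs were to be counted in windows centred on the peaks, and were counted in RefSeq promoter windows instead, since no genome was used. Alternatives were another threshold, count minimum, pseudocount, mean or scaling, each library left out, and a block on the pool number.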

Additional observations from a re-analysis of the deposited data

How the results depend on the processing

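The number of peaks chosen was 171 at a difference of -0.5 or lower and 694 at -0.3 or lower, and 53 at a mean count of 50 or more and 713 at 10 or more. Left-out libraries gave 292 to 472 peaks. The median of PL minus PP ran from 0.324 to 0.571, PBL minus PBP from 0.625 to 0.722, LL minus PP from -0.204 to -0.124, LBL minus PBP from -0.133 to -0.022 and PBP minus PP from -0.23 to -0.194 over left-out libraries, with the 323 peaks held fixed. When the rule was applied again with PL 3_4 left out, PBP minus PP came to -0.294, and with PL 1_2 left out to -0.111. The cause of these shifts was not tested. In PBP against PP, edgeR on those 4 libraries alone called 1 of the 323 lower, and the other alternatives called 0 in either direction.

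Settings added after seeing the data gave these shares. Peaks higher than rest at first LPS in both arms were 55.6% at -0.5 or lower, 26.8% without PL 3_4 and 55.7% among those kept without each library. The promoter share was 38.3% without PL 3_4 (a planned setting) and 18.6% among those kept. Peaks near inflammatory genes were 0% of those kept and 1.86% of the 323, and peaks near negative regulators 4.29% and 1.86%. For 47 named peaks under 12 settings each, 562 of 564 values stayed below 0, and 14 peaks met the rule under every one. The exceptions were the Irf7 peak, from -0.797 without PL 3_4 to 0.0411 without PL 1_2, and the intronic Pde4b peak, from -0.547 without PL 1_2 to 0.124 without PL 3_4.

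With a replicate block on the pool number, 0 of the 323 were called lower and 0 higher in PBP against PP, and over all peaks 63 were lower and 44 higher, beside 36 and 24 without it. Deviations from the group means of same-numbered pools correlated at -0.0163 to 0.141 over the pairs of groups compared (0.0101 between PP and PBP, 0.141 between PBP and PL), and nothing in the labels ties a number to a shared batch, so the numbers were not taken to pair the pools. Low counts (a median of 15 to 62 per library) limit the precision of every single peak, and a missed threshold does not show that groups are alike.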
